A study of Mus musculus with 24 samples.

Results

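The 10 genes described here encode the mouse PIWI proteins and the factors that make piRNAs: Piwil1, Piwil2, Piwil4, Mael, Mov10l1, Pld6, Asz1, Gtsf1, Henmt1 and Ddx4. They were chosen by name, as the rows with exactly these symbols, and all 10 were found among the 52323 rows of both gene tables. RNA was measured in male germ cells of wild-type NMRI mice whose spermatogenesis had been synchronised: WIN18,446, which blocks the making of retinoic acid, was given first and retinoic acid after it. Every animal also received 2 mg of 5-ethynyl uridine (EU) at 24 days after birth, and the cells were sorted by ploidy 3 h later, so no group was untreated. Total RNA and nascent RNA, which is RNA that had taken up EU and was captured, were sequenced in 12 libraries each. In each assay these were 3 libraries of spermatogonia from 2 animals, 1 of preleptotene spermatocytes, 4 of leptotene spermatocytes from 3 animals and 4 of pachytene spermatocytes from 2 animals. The study asked how transcription and RNA abundance change as germ cells enter meiosis.

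piRNAs are small RNAs of the animal germ line that PIWI proteins carry to transposons and other transcripts with matching sequence, leading to their cleavage or to silencing at the gene. Long single-stranded precursors are unwound and cut at the mitochondrial surface and in the germ granules called nuage, loaded into a PIWI protein, trimmed, and methylated at the 3' end. In the mouse testis a first set is made in fetal germ cells with PIWIL2 and PIWIL4, and a second, far more abundant set appears at the pachytene stage, when PIWIL1 is made and the transcription factor A-MYB (Mybl1) drives many precursor and pathway genes.

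Values are FPKM (fragments per length of transcript and per depth of the library) unless stated, so levels of different genes can be compared per length. Libraries are numbered within their stage as in the labels. A mean is the mean of animals, each first averaged over its own libraries, and its SD is between animals. Differences are between stages on the scale of log2(FPKM + 1), tested with limma over all genes, and a gene is said to have risen or fallen where the Benjamini-Hochberg adjusted p was under 0.05. In bulk samples of this kind, fewer cells of a type and less RNA per cell cannot be told apart.

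Leptotene library 2 stood apart from its stage, and so did library 3, more in nascent than in total RNA. The differences from leptotene to pachytene are given with and without each. Leptotene library 2 resembled pachytene in both assays: its total RNA had a Spearman rho of 0.874 to 0.904 with the pachytene libraries and 0.528 to 0.569 with the other leptotene libraries, across 19202 genes. In nascent RNA these were 0.754 to 0.860 and 0.594 to 0.625, across 16375 genes. In total RNA leptotene library 3 had a rho of 0.739 to 0.853 with spermatogonia, 0.8515 with preleptotene and 0.528 to 0.846 with leptotene. In nascent RNA these were 0.766 to 0.862, 0.790 and 0.594 to 0.779. The lowest leptotene values were those with library 2. The 10 spermatogonia markers of library 3 summed to 116 FPKM in nascent RNA, against 51.4 and 56.0 FPKM in leptotene libraries 4 and 1. In total RNA they summed to 144 FPKM, against 119 FPKM in each of libraries 1 and 4. Library 3 is the only leptotene library of its animal. The 10 pachytene markers of leptotene library 2 summed to 1747 FPKM in total RNA. They summed to 82.3 to 126 FPKM in the other leptotene libraries and 1964 to 2428 FPKM in pachytene. The spermatogonia libraries held markers of somatic cells: 12 Sertoli cell markers summed to 171 FPKM or more there, to 12.3 to 42.4 FPKM in leptotene and to 2.99 to 7.97 FPKM in pachytene. The 7 Leydig cell markers summed to 173 to 424 FPKM in spermatogonia and 4.47 to 7.76 FPKM in pachytene. Of the Sertoli markers, Rhox5 and Fshr were listed at 0 in all 4 pachytene libraries, where 0 to 3 of the 12 reached 1 FPKM. The part of these cells in the results below was not tested.

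The 4 genes whose total RNA was most raised in pachytene spermatocytes on the log2 scale, Piwil1, Mael, Henmt1 and Gtsf1, are shown first by their promoter windows, so that the bases around their starts can be read beside the values. Each window runs from 250 bases before to 50 bases after the start of transcription, from RefSeq on GRCm38.p6, 5' to 3' on the strand of the gene. Piwil1 lies at chr5:128735996-128736295 on the plus strand, Mael at chr1:166238695-166238994 on the minus strand, Henmt1 at chr3:108940307-108940606 on the plus strand and Gtsf1 at chr15:103430378-103430677 on the minus strand. In GENCODE M21 the genes Piwil1 and Henmt1 begin before these windows, at 128702524 and 108939873, so the annotations differ in their starts. Capitals mark CACGTG, the E-box bound by MYC family and MGA proteins, and CAGTT, the core of the MYB site.
Piwil1: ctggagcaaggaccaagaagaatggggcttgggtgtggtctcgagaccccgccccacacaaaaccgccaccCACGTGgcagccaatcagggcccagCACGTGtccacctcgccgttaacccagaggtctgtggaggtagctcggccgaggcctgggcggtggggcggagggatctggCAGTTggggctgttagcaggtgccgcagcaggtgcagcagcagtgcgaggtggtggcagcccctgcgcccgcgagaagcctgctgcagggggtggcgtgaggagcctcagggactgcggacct
Mael: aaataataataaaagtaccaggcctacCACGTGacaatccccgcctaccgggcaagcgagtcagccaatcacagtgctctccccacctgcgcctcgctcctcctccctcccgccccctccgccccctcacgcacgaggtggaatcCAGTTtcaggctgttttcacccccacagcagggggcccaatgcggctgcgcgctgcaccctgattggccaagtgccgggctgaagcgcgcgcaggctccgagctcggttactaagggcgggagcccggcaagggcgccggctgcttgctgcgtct
Henmt1: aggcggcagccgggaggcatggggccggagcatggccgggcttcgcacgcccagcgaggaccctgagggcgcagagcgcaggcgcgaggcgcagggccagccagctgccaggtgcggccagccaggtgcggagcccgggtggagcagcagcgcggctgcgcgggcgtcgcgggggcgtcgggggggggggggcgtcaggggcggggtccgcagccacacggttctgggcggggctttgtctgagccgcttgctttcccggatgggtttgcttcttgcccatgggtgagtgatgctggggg
Gtsf1: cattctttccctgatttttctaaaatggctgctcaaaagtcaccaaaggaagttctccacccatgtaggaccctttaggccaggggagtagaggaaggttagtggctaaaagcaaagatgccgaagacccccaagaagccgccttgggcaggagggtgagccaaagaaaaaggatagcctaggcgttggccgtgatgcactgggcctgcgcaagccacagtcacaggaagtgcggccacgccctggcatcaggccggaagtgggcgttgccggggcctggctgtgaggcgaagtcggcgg
The Piwil1 window held 2 E-boxes, at −179 and −154 from the start, and the MYB core at −73. In Mael the E-box began at −223 and the MYB core at −105, and neither was found in the Henmt1 or Gtsf1 window. RefSeq windows were matched for 9 of the 10 genes, 11 windows in all. On either strand CACGTG was in 5 of these 11, those of Piwil1, Mael, Ddx4, Mov10l1 and 1 of 2 for Pld6, and in 7.15% of all 32851 windows. CAGTT was in 3 of the 11, those of Piwil1, Mael and 1 of 2 for Piwil4, and in 44.8% of all windows. The E2F site TTCCCGC was in 1, that of Ddx4, and in 4.6% of all. No motif overlapped another in the windows shown. Piwil1, Mael and Henmt1 had 18, 24 and 31 CpG dinucleotides in their windows and Gtsf1 had 13, against a median of 7 over all windows. These matches describe the letters of the windows and are not binding sites measured here.

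Piwil1 (ENSMUSG00000029423.10, chr5:128702524-128755474, plus strand of mm10 in GENCODE M21) encodes MIWI, the PIWI protein that carries the piRNAs of pachytene spermatocytes and round spermatids. Its total RNA was 8.27, 1.19 and 1.75 FPKM in spermatogonia libraries 1 to 3 and 1.18 FPKM in preleptotene. It was 2.49, 94.3, 5.08 and 1.60 FPKM in leptotene libraries 1 to 4, and 142, 162, 84.7 and 153 FPKM in pachytene libraries 1 to 4. Pachytene libraries were all high, and the only leptotene library near them was number 2, which lay above the lowest pachytene library. The means were 3.24 ± 2.11 FPKM in spermatogonia (SD, n = 2 animals), 18.4 ± 26.1 in leptotene (n = 3) and 135 ± 31.3 in pachytene (n = 2). Without leptotene library 2 the leptotene mean was 3.05 ± 1.81 FPKM. The ratio of the pachytene to the leptotene mean was 7.37 with that library and 44.3 without it. A transcript annotated on the other strand, 4930553I04Rik, was at 5.00 to 6.26 FPKM in pachytene and 3.73 FPKM in leptotene library 2. Use of strand in counting is not stated, so reads of the pair may be mixed.

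Piwil2 (ENSMUSG00000033644.5, chr14:70372477-70429383, minus strand) encodes MILI, which works in fetal and in postnatal germ cells. Its total RNA was 40.2, 36.1 and 32.0 FPKM in spermatogonia, 32.3 FPKM in preleptotene, 30.8, 43.9, 32.5 and 30.0 FPKM in leptotene, and 48.7, 97.0, 41.5 and 88.9 FPKM in pachytene. The gene was well expressed at every stage. Its pachytene values fell into a lower pair from 1 animal (libraries 1 and 3) and a higher pair from the other (libraries 2 and 4), and the mean was 69.0 ± 33.8 FPKM (SD, n = 2) against 35.1 ± 4.37 in spermatogonia (n = 2).

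Piwil4 (ENSMUSG00000036912.17, chr9:14696230-14740733, minus strand) encodes MIWI2, the nuclear PIWI protein known for directing DNA methylation to transposons in fetal male germ cells. Its total RNA was 1.80, 1.52 and 0.654 FPKM in spermatogonia, 0.715 FPKM in preleptotene, 0.783, 0.131, 0.265 and 0.710 FPKM in leptotene, and 0, 0.0151, 0.0517 and 0 FPKM in pachytene. Pachytene lay below every other library, and the order of the stages was spermatogonia, preleptotene, leptotene, pachytene, with spermatogonia and leptotene overlapping. Piwil4 passed the filter on low values (at least 1 FPKM in at least 2 libraries) only through spermatogonia libraries 1 and 2. These levels were about 54 and 61 reads at the depth read from the files. An antisense transcript, Gm10706, and a pseudogene, Gm15586, overlap it on the other strand, at up to 0.498 and 1.32 FPKM.

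**Figure D1:**
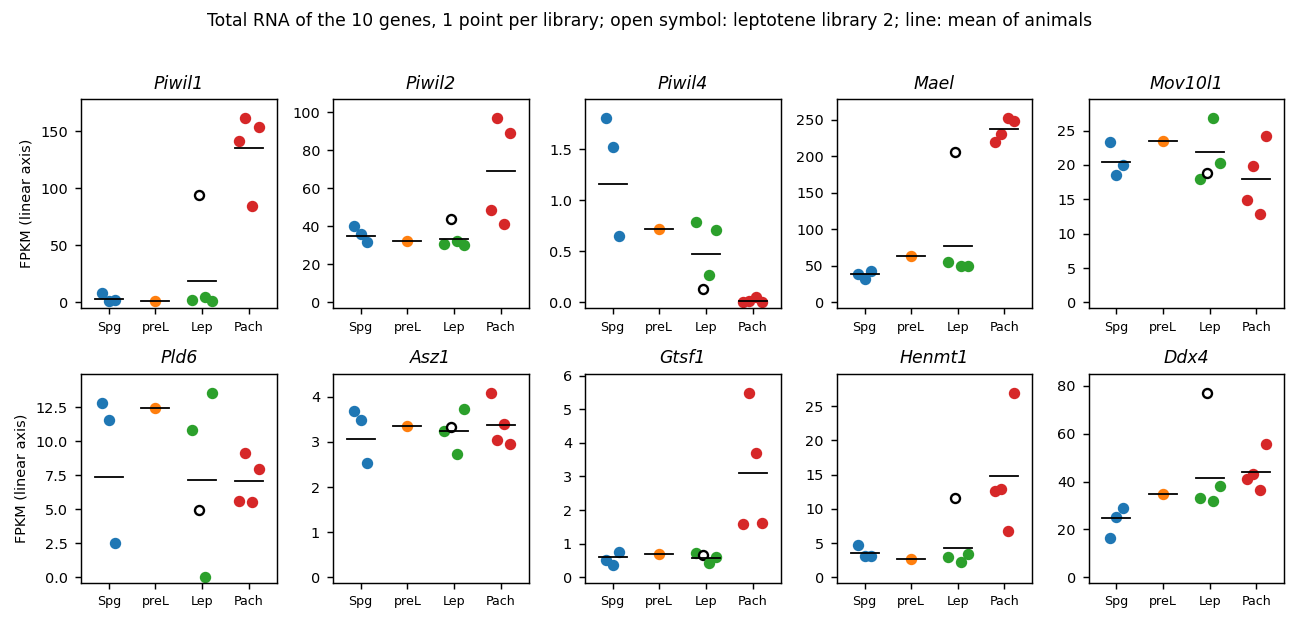
Total RNA (FPKM, linear axis from 0, scaled per gene) of the 10 genes in each library, by stage (Spg, spermatogonia; preL, preleptotene; Lep, leptotene; Pach, pachytene); lines are means of animals and the open symbol is leptotene library 2. Piwil1 is at 84.7 to 162 FPKM in pachytene and at 8.27 FPKM or less in all other libraries except leptotene library 2 (94.3 FPKM), while Mov10l1 and Asz1 stay in the same range at all stages.

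Mael (ENSMUSG00000040629.8, chr1:166201201-166238747, minus strand) encodes Maelstrom, a nuage protein needed for transposon silencing and for pachytene piRNAs. Its total RNA was the highest of the 10 genes at all 4 stages by stage mean. It was 38.6, 31.4 and 42.5 FPKM in spermatogonia, 63.7 FPKM in preleptotene, 55.1, 206, 49.8 and 49.1 FPKM in leptotene, and 219, 230, 252 and 247 FPKM in pachytene. Every pachytene library was above every leptotene library, number 2 included, and every leptotene library was above every spermatogonia library.

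Henmt1 (ENSMUSG00000045662.16, chr3:108939873-108960774, plus strand) encodes the methyltransferase that modifies the 3' end of piRNAs. It was at 4.78, 3.16 and 3.09 FPKM in spermatogonia, 2.59 FPKM in preleptotene, 2.94, 11.6, 2.29 and 3.35 FPKM in leptotene, and 12.6, 12.9, 6.77 and 27.0 FPKM in pachytene. Leptotene library 2 again lay within the pachytene range, and the other 3 leptotene libraries lay below all of pachytene. Gtsf1 (ENSMUSG00000022487.14, chr15:103402405-103430470, minus strand), a zinc finger cofactor of PIWI proteins, was at 0.361 to 0.765 FPKM in spermatogonia, 0.684 FPKM in preleptotene and 0.430 to 0.716 FPKM in leptotene. In pachytene libraries 1 to 4 it was at 1.57, 5.49, 3.69 and 1.62 FPKM. Unlike Piwil1, Mael and Henmt1, Gtsf1 in leptotene library 2 was inside the range of the other leptotene libraries, at 0.675 FPKM. That value was only about 3.9 reads, beside 4.6 to 6.3 reads in the other leptotene libraries. Gtsf1 passed the filter only through pachytene, where 15 to 55 reads were behind its values.

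Ddx4 (ENSMUSG00000021758.14, chr13:112598333-112652475, minus strand) encodes the germ cell RNA helicase known as VASA or MVH, a core protein of nuage. Its total RNA was 16.6, 25.0 and 29.1 FPKM in spermatogonia, 34.8 FPKM in preleptotene, 33.3, 77.1, 31.7 and 38.0 FPKM in leptotene, and 41.0, 43.3, 36.4 and 55.5 FPKM in pachytene. Here leptotene library 2 was above every other library of the assay, pachytene included. Mov10l1 (ENSMUSG00000015365.15, chr15:88982909-89055152, plus strand), the helicase that binds piRNA precursors, ranged from 12.8 to 26.8 FPKM over the 12 libraries, with overlapping stages. Asz1 (ENSMUSG00000010796.11, chr6:18050964-18109061, minus strand), a mitochondrial protein that holds nuage together, ranged from 2.53 to 4.09 FPKM.

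Pld6 (ENSMUSG00000043648.7, chr11:59783897-59787645, minus strand) encodes the nuclease of the outer mitochondrial membrane that cuts piRNA precursors. It varied among libraries of the same stage: 12.8, 11.6 and 2.54 FPKM in spermatogonia, 12.5 FPKM in preleptotene, 10.8, 4.91, 0.0186 and 13.6 FPKM in leptotene, and 5.63, 9.14, 5.50 and 7.96 FPKM in pachytene. The low values of spermatogonia library 3 and leptotene library 3 came from different animals, per the labels. No order of the stages could be read from them.

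From spermatogonia to leptotene the total RNA of none of the 10 genes passed the test in either direction. Over all 19202 genes tested, 0.286% rose and 9.52% fell. The largest differences were in Piwil1, with 0.91 ± 0.71 (SE; limma adjusted p = 0.521), Mael, with 0.72 ± 0.41 (adjusted p = 0.361), and Ddx4, with 0.67 ± 0.35 (adjusted p = 0.327). Piwil4 differed by −0.53 ± 0.25 (adjusted p = 0.275), but it passed the filter only through spermatogonia, so its test is no support. At an unadjusted p under 0.05 the count of the 10 was 0 too, beside 4179 of all 19202 genes. Without leptotene library 2, Piwil1 differed by 0.11, Mael by 0.41 and Ddx4 by 0.47 on this scale, again with 0 called, and 0.79% of all genes rose. Mael and Ddx4 were higher in every leptotene library than in every spermatogonia library with or without it. Some of these libraries share an animal, and how many of all genes separated in this way was not counted. The median difference of the 10 genes was 0.06 and that of all genes −0.07. Without Piwil4 and Gtsf1 the median of the other 8 genes was 0.07, with 0 risen and 0 fallen.

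Gtsf1 and Piwil4 entered the test only through the stage where they were high, so they are left out of the counts and medians of the comparisons with pachytene and given as values beside them. Between leptotene and pachytene, 3 of the other 8 genes rose in total RNA and 0 fell, while 22.4% of all genes rose and 17.7% fell. Piwil1 rose by 4.32 ± 0.71 (limma adjusted p = 0.00345), Mael by 1.87 ± 0.41 (adjusted p = 0.00808) and Henmt1 by 1.61 ± 0.42 (adjusted p = 0.0169). They are a PIWI protein, a nuage protein and the enzyme that finishes the piRNA. Gtsf1 differed by 1.27, and with no filter on low values its adjusted p was 0.0207. Piwil2 differed by 0.95 ± 0.38 (adjusted p = 0.0749), and Mov10l1, Asz1, Ddx4 and Pld6 by −0.29 to 0.67. Piwil4, left out of the counts, differed by −0.52. The median difference was 0.81 for the 8 genes and −0.07 for all genes. Without leptotene library 2, Piwil1 rose by 5.12, Mael by 2.19, Henmt1 by 1.89 and Piwil2 by 1.03 (adjusted p = 0.0294 for Piwil2). Of all genes 28.8% rose there, and Gtsf1 differed by 1.26. Without leptotene library 1, which leaves library 2 to stand for that animal, none of the 10 was called and 8 of all genes rose. Without leptotene library 3, Piwil1 rose by 4.27 (adjusted p = 0.0117), Mael by 1.69 (adjusted p = 0.0226) and Henmt1 by 1.36 (adjusted p = 0.0426), and Pld6 differed by −0.48, against 0.67 with it.

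Only 1 animal per assay gave both leptotene and pachytene cells, so a fit with the animal as a block takes this difference from that animal. In that fit Piwil1 and Henmt1 kept their calls. Mael differed by 2.24 (adjusted p = 0.0567), no longer past the threshold, and Pld6 by 3.23 (adjusted p = 0.00462), against 0.67 ± 1.02 without the block. The Pld6 value sets 9.14 and 7.96 FPKM in pachytene against 0.0186 FPKM in leptotene library 3. Mael also missed the threshold without either pachytene animal (adjusted p = 0.062 and 0.0619). Without the animal of pachytene libraries 2 and 4, Gtsf1 (adjusted p = 0.0543) and Henmt1 (adjusted p = 0.162) missed it too, and so did Henmt1 without leptotene library 4 (adjusted p = 0.052) or without a filter on low values (adjusted p = 0.0505).

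**Figure D2:**
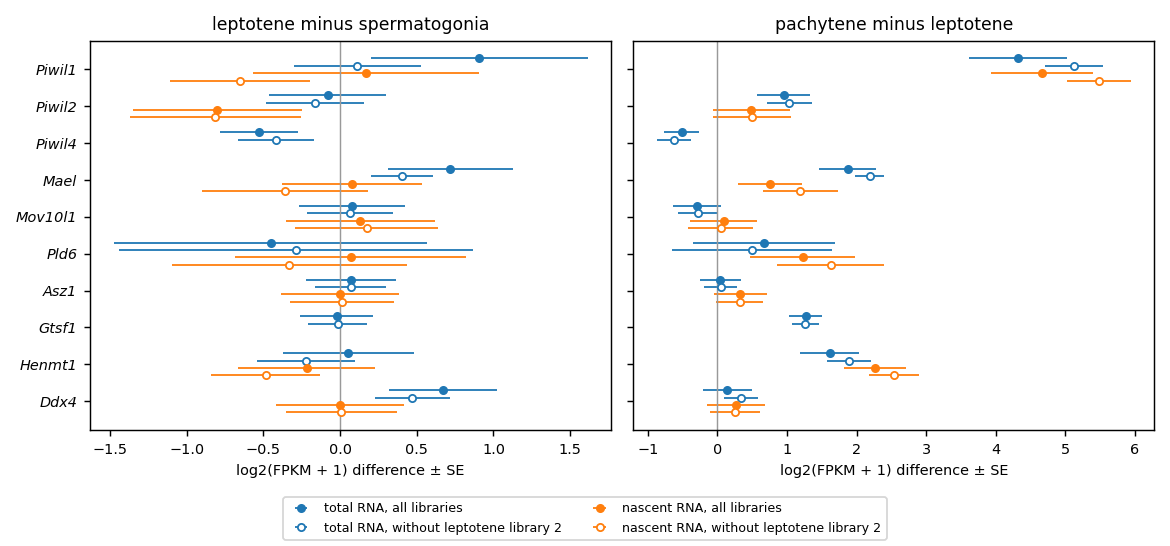
Differences between stages on the log2(FPKM + 1) scale with their SE from limma, for total RNA (blue) and nascent RNA (orange), with all libraries (filled) and without leptotene library 2 of that assay (open). Piwil1 stands farthest right from leptotene to pachytene, at 4.32 in total and 4.66 in nascent RNA, and no gene was called from spermatogonia to leptotene.

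From spermatogonia to pachytene 3 of the same 8 genes rose in total RNA and 0 fell, beside 23.1% and 29.7% of all genes. Piwil1 rose by 5.23 ± 0.77 (limma adjusted p = 0.00125), Mael by 2.59 ± 0.45 (adjusted p = 0.00189) and Henmt1 by 1.67 ± 0.47 (adjusted p = 0.0152). Gtsf1 differed by 1.25 and Piwil4 by −1.04, and with no filter on low values their adjusted p was 0.0118 and 0.0306. In FPKM the pachytene mean over the spermatogonia mean was 41.8 for Piwil1, 6.12 for Mael, 5.13 for Gtsf1 and 4.19 for Henmt1. Ddx4, with 0.81 ± 0.39, and Piwil2, with 0.87 ± 0.42, had adjusted p = 0.109 each. For both, every pachytene library was above every spermatogonia library, and how many of all genes did so was not counted. Without leptotene library 2, which enters through the shared estimate of the spread, Ddx4 passed the test (adjusted p = 0.0362). Mov10l1, Asz1 and Pld6 differed by −0.22 to 0.21.

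No animal gave both spermatogonia and pachytene cells. With the animal as a block, Gtsf1 differed by 1.57 (adjusted p = 0.0695) and Piwil4 by −0.76 (adjusted p = 0.335), and Pld6 by 3.92 (adjusted p = 0.00334). Piwil4 also missed the threshold without either pachytene animal (adjusted p = 0.074 and 0.0778), and it did not pass the filter without spermatogonia library 1 or 2. Henmt1 missed it without spermatogonia library 3 (adjusted p = 0.0972), without leptotene library 1 (adjusted p = 0.0955), without spermatogonia libraries 1 and 2, which are 1 animal (adjusted p = 0.0569), and without pachytene libraries 2 and 4 (adjusted p = 0.124).

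Nascent RNA of Piwil1 was 1.49, 0.825 and 1.07 FPKM in spermatogonia and 0.259 FPKM in preleptotene. In leptotene libraries 1 to 4 it was 0.359, 40.7, 0.335 and 0.319 FPKM, and in pachytene 83.9, 82.8, 12.9 and 130 FPKM. Leptotene library 2 was the only leptotene library with a signal like pachytene, and without it all of leptotene lay below all of spermatogonia. Henmt1 had the same order: 2.25 to 2.66 FPKM in spermatogonia, 0.758 FPKM in preleptotene, 1.60, 6.85, 1.73 and 1.23 FPKM in leptotene, and 14.6, 12.2, 5.99 and 30.1 FPKM in pachytene. Spike-in RNA took 5.01% to 76.5% of the summed nascent FPKM of a library. For both genes pachytene library 3, where that share was 76.5%, was the lowest of its stage, and library 4, where it was 13.1%, was the highest. In total RNA, where its spike-in share was 3.09%, pachytene library 3 was again the lowest of its stage for both genes. Its 10 spermatogonia markers summed to 11.8 FPKM in nascent RNA, against 1.49 to 3.25 FPKM in the other pachytene libraries. In total RNA they summed to 19.0 FPKM, against 1.90 to 3.11 FPKM. The part of the spike-in share and of earlier cells in these values was not tested.

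Mael nascent RNA was 18.1, 15.8 and 13.2 FPKM in spermatogonia, 24.8 FPKM in preleptotene, 5.82, 40.8, 24.3 and 10.2 FPKM in leptotene, and 37.6, 32.7, 25.2 and 18.0 FPKM in pachytene. Its leptotene values spanned those of spermatogonia and of pachytene. Piwil2 was at 17.7 to 24.8 FPKM in spermatogonia, 10.9 FPKM in preleptotene, 9.68, 10.3, 19.6 and 8.87 FPKM in leptotene, and 10.1, 28.9, 8.51 and 34.5 FPKM in pachytene. As in total RNA, its pachytene libraries 1 and 3 of 1 animal were low and libraries 2 and 4 of the other were high. Pld6 went from 1.77 to 62.1 FPKM over the 12 libraries, with its highest values in pachytene libraries 1 and 3 and leptotene library 2. Ddx4 (14.4 to 49.6 FPKM), Mov10l1 (5.71 to 23.0 FPKM) and Asz1 (1.43 to 3.99 FPKM) had overlapping stages. Piwil4 and Gtsf1 did not reach 1 FPKM in any nascent library, with at most 0.372 and 0.662 FPKM, and were not tested. Gtsf1 nascent RNA was listed at 0 in pachytene libraries 1, 3 and 4, the stage at which its total RNA was highest.

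**Figure D3:**
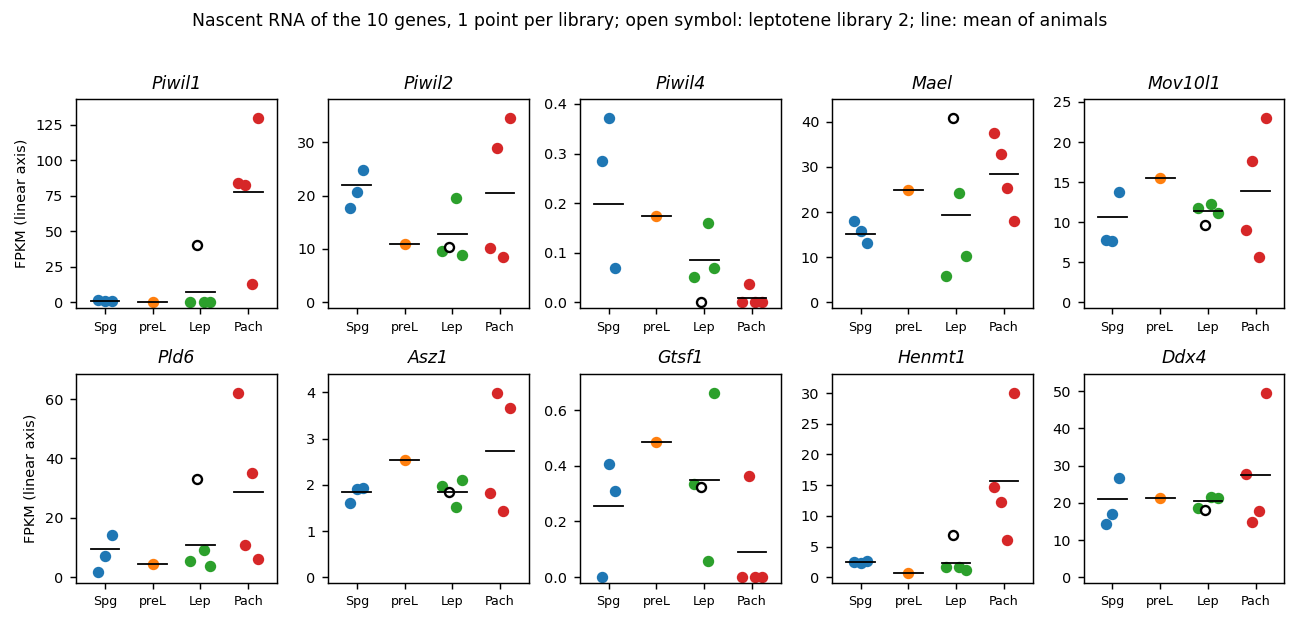
Nascent RNA (FPKM, linear axis from 0, scaled per gene) of the 10 genes in each library, by stage as for total RNA; lines are means of animals and the open symbol is leptotene library 2. Piwil1 is at 12.9 to 130 FPKM in pachytene and 40.7 FPKM in leptotene library 2, and at 1.49 FPKM or less elsewhere.

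Of the 8 genes tested in nascent RNA, 0 rose and 0 fell from spermatogonia to leptotene, beside 0.696% and 9.9% of all 16375 genes. At an unadjusted p under 0.05 the count of the 8 was also 0, and the count over all genes is not given here. The largest difference was that of Piwil2, −0.80 ± 0.55 (limma adjusted p = 0.415). From leptotene to pachytene 2 of the 8 rose, Piwil1 by 4.66 ± 0.74 (adjusted p = 0.00116) and Henmt1 by 2.27 ± 0.45 (adjusted p = 0.00345), and 0 fell, beside 15.8% and 15.4% of all genes. Mael differed by 0.75 ± 0.46 (adjusted p = 0.225). From spermatogonia to pachytene the 2 risen genes were again Piwil1, by 4.83 ± 0.81 (adjusted p = 0.000865), and Henmt1, by 2.05 ± 0.49 (adjusted p = 0.0059), and 0 fell, beside 15.6% and 27.9%. Without leptotene library 2 the differences from leptotene to pachytene were 5.49 for Piwil1 and 2.53 for Henmt1, both called. Without leptotene library 3 they were 4.25 (adjusted p = 0.00285) and 2.20 (adjusted p = 0.00669), and Piwil2 differed by −1.13 from spermatogonia to leptotene (adjusted p = 0.192). Without leptotene library 1 neither was called (adjusted p = 0.0806 and 0.0619), and Henmt1 missed the threshold without the animal of pachytene libraries 2 and 4 (adjusted p = 0.072 against leptotene and 0.0723 against spermatogonia).

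When each library was scaled to equal spike-in FPKM, none of the 8 genes and no gene of all was called in nascent RNA. Piwil1 then differed by 3.59 and Henmt1 by 0.99 from leptotene to pachytene. The median of all genes moved to −1.13 in that comparison, from −0.27.

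The authors also deposited nascent values corrected on 5S RNA, in which each of 9 libraries is multiplied by its own constant, from 0.441 in leptotene library 4 to 5.08 in pachytene library 2. Leptotene libraries 2 and 3 and pachytene library 3 are not in that table, so leptotene rests on libraries 1 and 4. In these corrected units Piwil2 was 69.1, 56.0 and 23.4 in spermatogonia, 5.08 in preleptotene, 5.69 and 3.91 in leptotene, and 17.8, 147 and 78.5 in pachytene libraries 1, 2 and 4. Mael was 70.8, 43.0 and 12.4 in spermatogonia, 11.6 in preleptotene, 3.42 and 4.48 in leptotene, and 66.1, 166 and 40.9 in pachytene. For both genes the leptotene libraries lay below every spermatogonia and every pachytene library. The same held for Piwil1, Henmt1, Pld6, Ddx4, Mov10l1 and Asz1, and how many of all genes did so was not counted. The constants of leptotene libraries 1 and 4 were 0.588 and 0.441, and those of spermatogonia and pachytene were 0.943 or more.

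From spermatogonia to leptotene all 9 genes that could be tested in the corrected table had differences below 0. How many of all genes did so was not counted. In the same libraries without the correction the 8 genes tested differed by −1.15 to 0.14. Gtsf1 is among the 9 only in corrected units, where spermatogonia library 2 (1.11) and pachytene library 2 (1.85) alone were above 1. Its part in the counts and medians is no support. Piwil2 fell, by 2.75 ± 0.99 (limma adjusted p = 0.0362), beside 27.2% of all genes. Mael differed by −2.46 (adjusted p = 0.0555), Pld6 by −1.99, Ddx4 by −1.71, Henmt1 by −1.63, Mov10l1 by −1.46, Piwil1 by −1.32, Asz1 by −1.05 and Gtsf1 by −0.13. The median of the 9 was −1.63 and that of all genes −1.08. From leptotene to pachytene 7 of the 9 rose, beside 31.1% of all genes: Piwil1 by 7.49, Henmt1 by 4.52, Pld6 by 4.03, Mael by 3.90, Piwil2 by 2.96, Ddx4 by 2.60 and Asz1 by 1.87. Mov10l1 differed by 2.31 (adjusted p = 0.0564) and Gtsf1 by 0.07. The median was 2.96 for the 9 and 0.87 for all genes. From spermatogonia to pachytene Piwil1 rose by 6.17 and Henmt1 by 2.90, 2 of the 9, beside 18.3% of all genes. In the same 9 libraries without the correction 3 of 8 rose from leptotene to pachytene, beside 22.3% of all genes, Piwil1 by 6.14, Henmt1 by 2.89 and Mael by 1.84, and none fell from spermatogonia to leptotene.

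**Figure D4:**
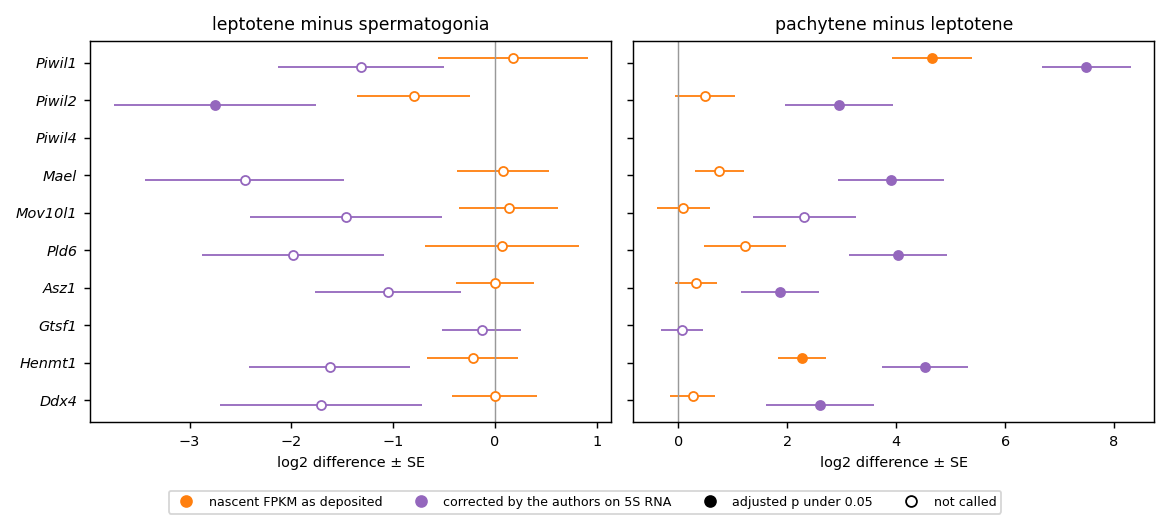
Differences in nascent RNA on the log2 scale with their SE from limma, for the FPKM of 12 libraries (orange) and the values corrected by the authors on 5S RNA in 9 libraries (purple); filled symbols passed the test. From spermatogonia to leptotene the corrected differences lie at −0.13 to −2.75, and from leptotene to pachytene 7 of 9 are filled.

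The change in total RNA was set against the change in nascent RNA, through an interaction term, for the 8 genes that passed the filter in both assays. None of the 8 was called in any of the 3 comparisons, where 0%, 0.0251% and 0.0126% of all 15914 genes were. The largest was Mael from spermatogonia to pachytene, at 1.76 ± 0.68 more in total than in nascent RNA (limma adjusted p = 0.439, unadjusted p = 0.0206). It was the only 1 of the 8 at an unadjusted p under 0.05 in that comparison, and in the other comparisons the count was 0. Piwil2 differed by 1.18 ± 0.78 there and by 0.72 ± 0.71 from spermatogonia to leptotene. From leptotene to pachytene Piwil1 differed by −0.34 ± 1.15 and Henmt1 by −0.66 ± 0.63. The SEs of the 8 genes ran from 0.45 to 1.56 over the 3 comparisons. Over all genes, 444, 1074 and 1501 had an unadjusted p under 0.05.

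Other genes of the pathway, 25 of a list of 26 that could be found, moved in both directions. In total RNA 24 were tested. From spermatogonia to leptotene 1 rose, Tex19.1 by 1.82 ± 0.44 (limma adjusted p = 0.0341), and 0 fell, where 0.286% of all genes rose and 9.52% fell. From leptotene to pachytene 8 of 24 rose and 5 fell, where 22.4% and 17.7% of all genes did, so the share that fell was near that of all genes. The largest rises were in Tdrd6, a Tudor protein of the chromatoid body (4.64 ± 0.82), Hsp90aa1, a chaperone (2.03 ± 0.40), Tdrd5 (1.66 ± 0.43) and Exd1 (1.47 ± 0.33). Tex15, which is needed for transposon methylation, fell by 4.85 ± 0.94, Btbd18, a transcription factor of pachytene piRNA precursors, fell by 3.05 ± 0.36, Fkbp6 fell by 2.27 ± 0.56 and Tex19.1 fell by 2.16 ± 0.44. Against spermatogonia 8 rose, among them Mybl1 by 2.03 ± 0.72, and 5 fell, where 23.1% and 29.7% of all genes did. In nascent RNA 22 were tested. Mybl1 rose by 2.23 ± 0.63 from spermatogonia to leptotene. Of the 22, 5 rose and 3 fell from leptotene to pachytene, where 15.8% and 15.4% of all genes did, led by Tdrd6 (5.01), Tdrd5 (2.97), Tdrd1 (2.73) and Tdrd12 (1.90), and Btbd18 fell by 3.22, Tex15 fell by 2.98 and Fkbp6 fell by 1.53. The median of the list in total RNA from leptotene to pachytene was 0.37, against −0.07 for all genes.

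**Figure D5:**
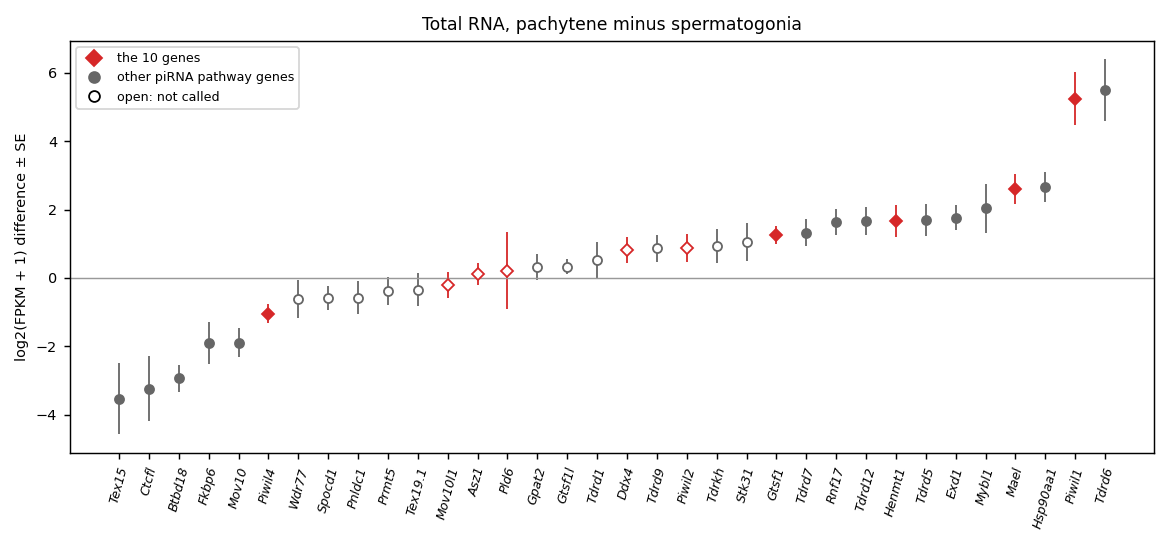
Total RNA differences between pachytene and spermatogonia on the log2(FPKM + 1) scale with their SE from limma, for the 10 genes (red diamonds) and 24 other piRNA pathway genes (grey circles), in order of size; filled symbols passed the test. Piwil1 (5.23) is next to Tdrd6 (5.49) at the upper end, and Piwil4 lies at −1.04. Gtsf1 and Piwil4 entered this test only through the stage where they were high, so their filled symbols are no support.

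The genes whose total RNA followed the PIWI genes most closely were looked up over the 12 libraries, by Pearson r of log2(FPKM + 1) among 7370 to 7371 genes with a mean of at least 5 FPKM in their highest stage. For Piwil1 they were Haus4 (r = 0.989), Aym1 (0.987) and Catsperg1 (0.987). For Piwil2 they were Zfp593 (0.968), Babam1 (0.954) and Zfp770 (0.943), and for Piwil4 Nckap5l (0.985), Trim12c (0.980) and Ssh1 (0.980). The 12 libraries share stages and animals, so these are descriptions of the order of libraries only.

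By stage mean in total RNA, Mael was followed by Piwil2, Ddx4 and Mov10l1 in spermatogonia, at 38.7, 35.1, 25.0 and 20.5 FPKM. In pachytene the order was Mael, Piwil1, Piwil2, Ddx4, Mov10l1, Henmt1, Pld6, Asz1, Gtsf1 and Piwil4, at 237, 135, 69.0, 44.1, 17.9, 14.8, 7.06, 3.37, 3.09 and 0.0167 FPKM. In spermatogonia Piwil1 ranked below Henmt1 and above Asz1, at 3.24 FPKM. Among neighbours in the pachytene order, the libraries of Mael and Piwil1 did not overlap, nor did those of Ddx4 and Mov10l1, of Pld6 and Asz1, or of Gtsf1 and Piwil4. The libraries of all other neighbours in that order did.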

How the data were processed

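Per the submitters' processing notes, reads were aligned with STAR 2.5.2a and quantified with StringTie on mm10; which StringTie version and annotation were used, and whether strand was, is not given in the sources used here. The deposited tables hold FPKM per gene for total and nascent RNA, and 1 more deposited table holds a signal, the nascent FPKM times 1 constant per library (5S-corrected); how the constants were made is not given in the sources used here. Total RNA was depleted of ribosomal RNA and nascent RNA was not, per the labels' protocols, and spike-ins were added after extraction. Depth is not stated; the step between the lowest FPKM values implied 7.07 to 15.8 M reads in total and 5.07 to 10.1 M in nascent libraries, with 29.3% to 40.0% of low values within 0.05 of a whole read, so reads given are approximate and no count test was run. At these depths 1 FPKM over 1500 bases was 7.61 to 23.7 reads.

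The members, gene lists, marker lists and tests were chosen with earlier results of these data known. The 10 genes are named in every comparison; of the other pathway genes up to 4 called per direction are named. A gene was tested where 2 or more libraries reached 1 FPKM, without the 92 spike-in rows. After adding 1, log2 values were averaged over libraries of the same animal and stage, and two-sided tests came from limma 3.58.1 (R 4.3.3; a linear model with empirical Bayes moderation and a mean-variance trend), all stages sharing 1 estimate of the spread, with Benjamini-Hochberg adjustment over all genes. Total over nascent RNA is the interaction of assay and stage. The 5S-corrected values were first multiplied by 1 common constant to give them the mean total of the uncorrected FPKM. Values in text are as deposited. Preleptotene is 1 animal per assay and was not tested. Animals are the individuals named in the labels, so p-values measure the spread between these 2 or 3 animals per stage; the total and nascent animals carry different numbers.

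Stages share animals, per the labels: spermatogonia and leptotene 2, leptotene and pachytene 1, in each assay. The correlation over genes of their deviations from stage means was 0.02 to 0.08 in total and −0.16 to 0.05 in nascent RNA. A fit with the animal as a block was run as an alternative. The test was checked on simulated data with known changes. Other settings were another pseudocount, other filters, median and spike-in scaling, and each library or animal left out. Coordinates are from GENCODE M21 on mm10; promoter windows are from RefSeq on GRCm38.p6. Python 3.11.15, with numpy 2.4.6, pandas 2.3.3 and matplotlib 3.10.9, was used for all else.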

Additional observations from a re-analysis of the deposited data

Results flagged for a closer look

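Among 40 groups of 4 libraries (10 genes, leptotene and pachytene, both assays), 9 had a library far from the other 3 by Dixon's test. For independent, normally spread values about 1 in 20 groups would be flagged. These groups share libraries and animals, so that rate is no measure of chance here. In 6 of the 9 the library was leptotene library 2. In total RNA it held Piwil1 at 94.33 FPKM (others 1.60 to 5.08), Mael at 205.9 FPKM (others 49.1 to 55.1), Henmt1 at 11.6 FPKM (others 2.29 to 3.35) and Ddx4 at 77.13 FPKM (others 31.7 to 38.0). In nascent RNA it held Piwil1 at 40.7 FPKM (others 0.319 to 0.359) and Henmt1 at 6.847 FPKM (others 1.23 to 1.73). Piwil2 nascent RNA was 19.62 FPKM in leptotene library 3 (others 8.87 to 10.3). Pachytene library 2 was the only 1 of its stage with nascent RNA of Piwil4, 0.03722 FPKM, and of Gtsf1, 0.3639 FPKM, in both cases about 1 to 3 reads. With the other libraries at 0, any value above 0 is flagged.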

How the results depend on the processing

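In total RNA, 9 differences were past the threshold, Gtsf1 and Piwil4 included, as in all counts below. Gtsf1 and Piwil4 entered the test only through the stage where they were high, so their part in these counts is no support. The 9 differences kept their direction in all alternatives run. They kept their call in 58 of 62 values with all libraries and 117 of 132 with a library or animal left out. The 4 of nascent RNA kept their call in 28 of 32 and 56 of 60. In the 9 libraries that match the 5S-corrected table, a choice made after seeing the data, Piwil1 in total RNA differed by −0.23 from spermatogonia to leptotene and Pld6 by −0.72 from leptotene to pachytene, and 1 gene, Piwil4, fell in that second comparison. Under a pseudocount of 0.1, 1 gene fell there too, again Piwil4. Pld6 differed by −0.024 from spermatogonia to pachytene under median scaling. With each library or animal left out, Pld6 ranged from −0.48 to 1.44 (leptotene to pachytene) and from −0.74 to 1.16 (spermatogonia to pachytene), the number of genes risen from leptotene to pachytene from 0 to 5, and the number fallen from spermatogonia to pachytene from 0 to 1. That last number was 0 under a stricter filter and 0 with the replicate block (animal). Beyond the calls given above, the block changed no other call of a printed difference.

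In nascent RNA, spike-in scaling left 0 genes risen from leptotene or spermatogonia to pachytene, with Mael at −0.83, and total over nascent differences of 1.68 for Piwil1 and 1.48 for Henmt1 from leptotene to pachytene. The 5S-corrected table gave 7 risen there and 1 fallen from spermatogonia to leptotene. Leaving out libraries gave 0 to 2 and 1 to 2 risen in the 2 comparisons with pachytene, and −1.17 to 0.48 for the total over nascent difference of Piwil1. The cause of these changes was not tested. Over all genes the counts moved by more than 1.5 times under some settings. In total RNA, from spermatogonia to leptotene 55 rose (5 to 1441 over all settings) and 1828 fell (84 to 3501), from leptotene to pachytene 4303 rose (8 to 7135) and 3407 fell (1 to 5174), and from spermatogonia to pachytene 4442 rose (1931 to 5943) and 5701 fell (3264 to 7743). In nascent RNA these were 114 (0 to 2150), 1621 (0 to 4955), 2590 (0 to 5655), 2514 (0 to 4777), 2562 (0 to 3328) and 4569 (0 to 5452), each 0 under spike-in scaling. For total over nascent RNA, 0 to 3 genes per direction were called, and up to 290 over all settings. With 2 or 3 animals per stage, and few reads for Piwil4 and Gtsf1, small differences could not be resolved.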
